A study of Mus musculus with 8 samples.

Results

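Foxa1, Foxa2 and Foxa3 are the 3 FOXA family genes of the mouse, and their loci were examined in the loop lists of a Hi-ChIP experiment on mouse pancreatic cancer cells. Hi-ChIP joins DNA fragments that touch in the nucleus and then pulls down those held by a chosen protein, here FOXA1 or HNF4G. A loop is a pair of anchors, or stretches of DNA, reported as joined. Loops were chosen in 2 ways. A promoter loop had an anchor within 2 kb of an annotated transcription start of the gene, and a neighborhood loop had both anchors within 250 kb of such a start. Together these rules gave 246 distinct loops, of 249200 in the series, with 27 at Foxa1, 64 at Foxa2 and 155 at Foxa3.

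FOXA proteins are forkhead transcription factors, called pioneer factors because they bind their sites in closed chromatin and help to open it for other proteins. They act early in the endoderm and later in liver, pancreas, lung and gut, and they often bind enhancers of their own family and of other endodermal regulators. HNF4G is a nuclear receptor of the HNF4 family that binds DNA in gut and pancreas epithelium, often close to FOXA sites. Loops pulled down with FOXA1 at the FOXA genes bear on self regulation and cross regulation inside the family, and loops pulled down with HNF4G at the same genes bear on cross regulation between the families. A contact captured in this way places the pulled down protein near at least 1 anchor, and does not tell which one. Many listed loops are weak evidence of such a contact, as given further on.

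The study compared a cell line from a primary tumor of the KPC mouse, a pancreatic cancer model, with a matched cell line from a liver metastasis (liver mets). Each line was used for FOXA1 and for HNF4G Hi-ChIP, which gives 4 groups, with 2 replicates each, 8 samples in all. Every sample was labelled WT in genotype and untreated, and all cells were grown in DMEM with FBS. Each condition is 1 cell line, so line and site cannot be told apart. The deposited data were 1 loop list per group, with no values per replicate, so no spread between replicates could be calculated and no test between groups was run. Liver mets and tumor lists numbered 125623 and 104136 loops for FOXA1 and 78098 and 76323 for HNF4G, between 30542 anchors. Where 4 values are given in list order below, they stand for FOXA1 in liver mets, then in tumor, then HNF4G in liver mets, then in tumor. Read depth is unknown. Intervals are 95% intervals for counting error only and take no account of anchors that several loops share. Loops carry no expression levels, so the cell type could not be checked against marker genes.

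All loops joined anchors of the same chromosome, up to 2000 kb apart. The 3 genes lie on different chromosomes, so contacts between them were outside what the lists could hold. On the GRCm38 (mm10) assembly, Foxa1 lies at chr12:57540628-57546916, Foxa2 at chr2:148042877-148046969 and Foxa3 at chr7:19013284-19023538, all on the minus strand. Each gene had 1 promoter anchor. That of Foxa1 was chr12:57542846-57548067, 5222 bp wide, and covered the starts and most of the gene. That of Foxa2, chr2:148039410-148047962, was 8553 bp wide, wider than 99.4% of anchors. It contained the whole of Foxa2 and also the start of the neighboring long noncoding RNA gene 9030622O22Rik. The anchor of Foxa3, chr7:19022878-19025241, was 2364 bp wide and also held the start of Sympk, which encodes symplekin, a scaffold of the polyadenylation machinery. Loops at Foxa2 and Foxa3 therefore cannot be assigned to the FOXA gene rather than to the gene sharing its anchor.

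The 250 bases before a start of each gene are printed because self regulation or cross regulation at a promoter would act on sequence such as this. Sequences are from RefSeq (GRCm38.p6), 5′ to 3′ on the strand of the gene, with the start just after the last base. Capitals mark a forkhead match, TGTTTAC or TGTTTGC on either strand.
Foxa1 promoter, chr12:57546112-57546361, minus strand: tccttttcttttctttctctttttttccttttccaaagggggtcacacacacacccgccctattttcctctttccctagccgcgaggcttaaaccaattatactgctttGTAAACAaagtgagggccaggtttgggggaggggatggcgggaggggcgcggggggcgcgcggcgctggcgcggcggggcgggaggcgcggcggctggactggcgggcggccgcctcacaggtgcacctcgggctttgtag
Foxa2 promoter, chr2:148046970-148047219, minus strand: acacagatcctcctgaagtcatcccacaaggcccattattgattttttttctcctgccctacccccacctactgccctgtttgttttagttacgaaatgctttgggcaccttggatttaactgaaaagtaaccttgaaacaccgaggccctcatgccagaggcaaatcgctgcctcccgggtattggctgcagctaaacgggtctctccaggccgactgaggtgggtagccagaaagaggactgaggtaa
Foxa3 promoter, chr7:19023540-19023789, minus strand: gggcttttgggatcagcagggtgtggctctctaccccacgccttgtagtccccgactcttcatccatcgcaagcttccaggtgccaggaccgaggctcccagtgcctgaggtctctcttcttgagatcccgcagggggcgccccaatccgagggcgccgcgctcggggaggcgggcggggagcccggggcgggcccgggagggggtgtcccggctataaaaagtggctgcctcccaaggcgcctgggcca

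The Foxa1 promoter held 1 forkhead match, written GTAAACA on this strand, 141 bases before the start. TGTTTAC occurred in 3.17% and TGTTTGC in 4.30% of 32851 mouse promoters of the same length. Neither motif was found in this window of Foxa2, before its 2 other RefSeq starts, or before the start of Foxa3. The HNF4 motif CAAAGTCCA, found in 0.384% of promoters, and the direct repeat of 2 AGGTCA half-sites with 1 A between them, found in 0.0152%, were in none of these windows. Over the whole promoter anchor, which is far wider, Foxa2 held 2 TGTTTAC matches. The anchor of Foxa1 held only the 1 match above and that of Foxa3 held none.

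All 3 genes had promoter loops in all 4 lists, which was also the case for 84.5% of the 10802 protein-coding genes with a promoter anchor, so this does not set the FOXA genes apart. For FOXA1, Foxa1 had 11 promoter loops in liver mets and 8 in tumor, and for HNF4G it had 5 and 6. Foxa2 had 18 and 13 for FOXA1 and 11 and 9 for HNF4G, and Foxa3 had 9 and 4 for FOXA1 and, like Foxa2, 11 and 9 for HNF4G. Among the genes with a promoter anchor, the median was 7, 6, 5 and 5 loops in list order. All counts at Foxa1 were at this median or above it, and Foxa2 lay above it in every list. Both genes have wide promoter anchors, and both lay below the median of genes with anchors of like width in every list, as given further on. FOXA1 tumor was the list in which Foxa3 fell below it.

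**Figure D1:**
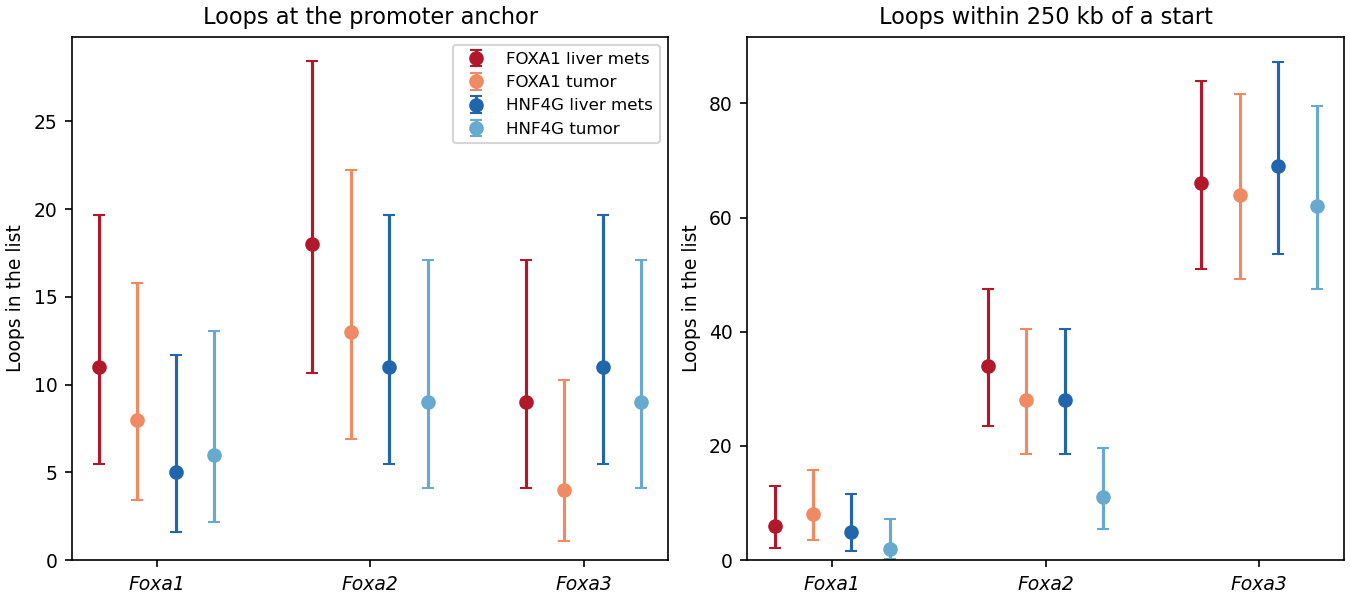
Number of loops (vertical axes) at the promoter anchor (left) and with both anchors within 250 kb of a start (right) for the 3 FOXA genes, by list (color), with exact 95% Poisson intervals for counting error. The promoter intervals of the 4 lists overlap for each gene, and the HNF4G tumor count of Foxa2 in the right panel, 11, lies below the other 3 lists, at 28 to 34.

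The Foxa1 promoter joined 21 distinct partners, mainly on the downstream side, across Mipol1 and Slc25a21. Mipol1 encodes a coiled-coil protein, and Slc25a21 encodes a mitochondrial carrier of oxodicarboxylates. Of 9 anchors within 400 kb downstream, 8 were joined to Foxa1 in at least 1 list, as were both anchors within 400 kb upstream. One partner was found in all 4 lists, an anchor at an exon of Mipol1, chr12:57494845-57499115, whose midpoint was 49.9 kb downstream of the 5′ end of Foxa1. The loops also carry a value, which the files do not name and which was read as the −log10 of an adjusted p from its form alone. On that reading a value far below 1 is weak evidence of a contact. Values in the FOXA1 liver mets list go down to 0.0453, so joined means listed here and does not mean significant. For the Mipol1 partner the FOXA1 value was 1.87 in liver mets and 0.364 in tumor, and the HNF4G value was 0.421 and 0.171. In the FOXA1 liver mets list 4.84% of loops of the same span range had a value at least as high, and in the HNF4G tumor list 85.6% had. The loop thus stood near the top of its span range in 1 list and near the bottom in another. Both of these values are the most common ones of their lists, tied over 18323 and 12580 loops, so they are not a graded difference.

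The Mipol1 partner is shown around 2 forkhead matches, on the plus strand, because it was the Foxa1 partner that recurred in every list.
Mipol1 partner of Foxa1, chr12:57496579-57496608: ttcaacactgtGTAAACActaaaagcctta
Mipol1 partner of Foxa1, chr12:57496603-57496632: gccttaacttaGCAAACAgttgttagaagt

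A nearby anchor between genes, 12.0 kb downstream of the Foxa1 5′ end, was joined in every list but HNF4G liver mets, at 0.210 and 0.0981 for FOXA1 in liver mets and tumor and 0.170 for HNF4G in tumor. The Mipol1 intron 68.4 kb downstream was joined in both FOXA1 lists and in no HNF4G list, at 0.0889 in liver mets and 1.43 in tumor. It was the only Foxa1 partner with this pattern, 4.76% of the distinct ones, beside 5.88% of all distinct loops. Further out, a pair of Slc25a21 promoter anchors, 350 and 387 kb downstream, were joined to Foxa1 in FOXA1 liver mets (values 1.73 and 1.73) and in HNF4G tumor (1.92 and 1.94), and in neither of the other lists. Of loops of like span, 43.9% and 44.1% in FOXA1 liver mets and 40.5% and 31.2% in HNF4G tumor had values at least as high. The Slc25a21 promoter anchors are named after their values were seen. The highest value at Foxa1 in any list was 3.60, for an Slc25a21 intron 357 kb downstream in HNF4G liver mets, a level reached by 3.87% of loops of like span there. That loop was in no other list. Upstream, the promoter of Ttc6, a gene for a tetratricopeptide repeat protein, was joined to Foxa1 in HNF4G liver mets alone, with a value of 0.410. In FOXA1 liver mets the highest value, 1.87, was tied between the Mipol1 exon and 5 loops of over 1000 kb. Those long partners included the shared promoter anchor of Gemin2, of the SMN complex, and Sec23a, of the COPII coat, and the promoter of Brms1l, a component of the SIN3 histone deacetylase complex. Every loop of such span had a value at least that high in this list, so the value does not set these partners apart.

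Foxa2 was the FOXA gene with the densest set of recurrent loops, and these ran into and past 9030622O22Rik, downstream of the gene. Of 15 anchors within 400 kb downstream, 13 were joined to the Foxa2 promoter anchor in at least 1 list, with 12 and 10 in the FOXA1 liver mets and tumor lists and 10 and 6 in those of HNF4G. Upstream, 3 of 4 anchors were joined, in the FOXA1 lists only. No protein-coding gene other than Foxa2 lay within 250 kb.

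The Foxa2 partners found in all 4 lists numbered 4 and were all downstream. The nearest, chr2:148023336-148027846 in an intron of 9030622O22Rik and 21.4 kb from the Foxa2 5′ end, had the highest value of any loop at the FOXA gene promoters. Its FOXA1 value was 11.0 in liver mets and 1.19 in tumor, and its HNF4G value was 2.68 and 1.38. The share of same-span loops of the list with a value at least as high was 0.837%, 10.6%, 2.5% and 11.5% in list order. By this measure the loop was nearer the top of its span range in the liver mets list than in the tumor list of each factor.

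The next intronic partner, chr2:148012703-148014533 at 33.4 kb, had 4.25 in liver mets and 0.392 in tumor for FOXA1, and 0.886 and 1.97 for HNF4G. It stood among the highest 1.40% of its span range in FOXA1 liver mets and among the highest 3.56% in HNF4G tumor. The intronic partner at 61.8 kb, chr2:147984023-147986386, had lower values, from 0.123 in FOXA1 tumor to 1.23 in FOXA1 liver mets. The partner at 119 kb, chr2:147926144-147929518, lay between genes beyond the end of 9030622O22Rik. It had 6.06 and 3.36 in FOXA1 liver mets and tumor, and 1.44 and 1.29 in HNF4G liver mets and tumor. For this partner the FOXA1 lists stood high for its span, at 1.99% and 5.47%, while in the HNF4G lists 83.5% and 86.4% of same-span loops had a value at least as high.

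Stretches of 60 bases around forkhead matches in these recurrent Foxa2 partners are given on the plus strand, to show the family's own motif inside the sequence its promoter touched. The partner at 33.4 kb holds neither motif. The matches shown at 21.4 and 119 kb lie outside the central 1000 bases for which shares over all anchors are given further on.
Foxa2 partner at 21.4 kb, chr2:148026917-148026976: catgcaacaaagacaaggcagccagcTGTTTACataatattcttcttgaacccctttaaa
Foxa2 partner at 61.8 kb, chr2:147985248-147985307: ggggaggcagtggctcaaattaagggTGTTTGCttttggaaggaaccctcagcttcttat
Foxa2 partner at 119 kb, chr2:147927305-147927364: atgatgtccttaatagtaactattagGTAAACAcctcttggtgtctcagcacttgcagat
Foxa2 partner at 119 kb, chr2:147928391-147928450: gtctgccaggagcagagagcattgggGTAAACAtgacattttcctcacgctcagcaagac

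**Figure D2:**
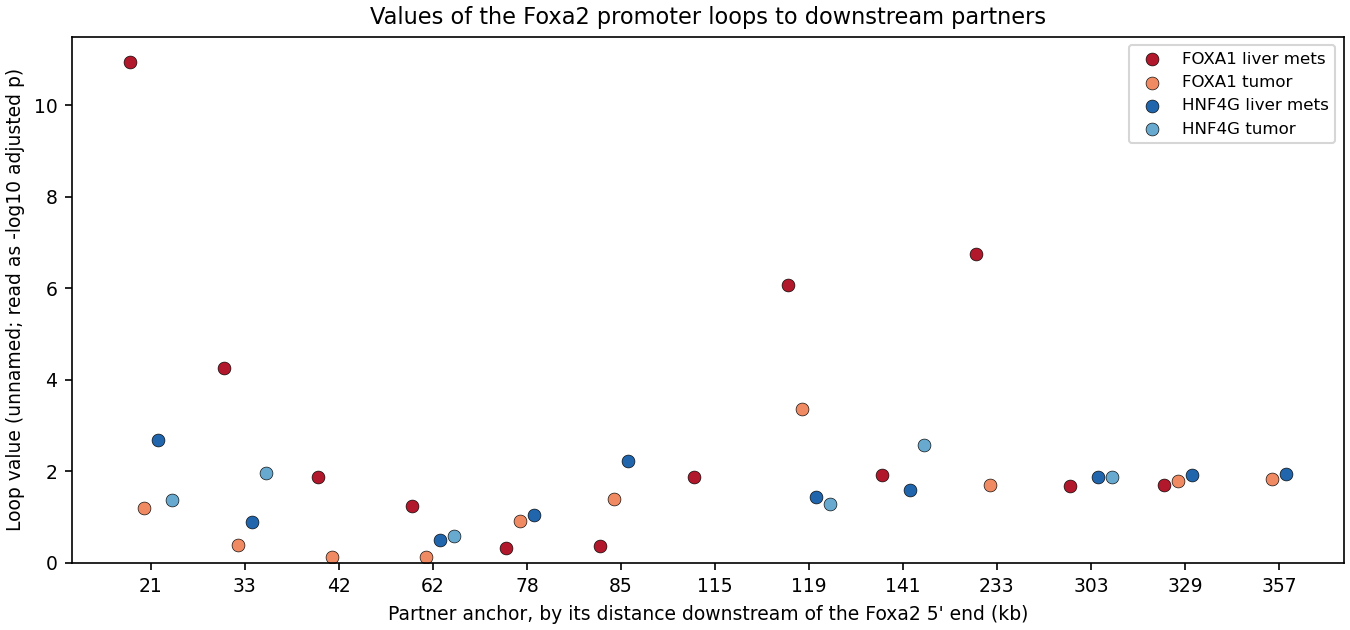
Value of each Foxa2 promoter loop (vertical axis, unnamed in the files and read as −log10 adjusted p) to the 13 joined anchors within 400 kb downstream, ordered along the horizontal axis by distance in kb. Each point is 1 loop in 1 list, and a missing point means that the loop is not in that list. The points at 21, 119 and 233 kb from FOXA1 liver mets, at 11.0, 6.06 and 6.75, are the highest.

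A group of 3 Foxa2 partners, 12% of the distinct ones, was in both FOXA1 lists and no other, a pattern shown by 5.88% of all distinct loops. Whether this differs with the factor was not tested. The anchor between genes at 233 kb downstream was in both FOXA1 lists, at 6.75 in liver mets and 1.71 in tumor, and in neither HNF4G list. Its liver mets value was among the highest 1.26% for that span and its tumor value was reached by 80.6% of loops. The intronic partner at 41.9 kb had the same pattern, at 1.87 in liver mets and 0.123 in tumor. The promoter of Cst8, a cystatin family gene upstream at a span of 758 kb, was the third, at 1.87 and 1.91. These were reached by 42.8% and 65.7% of loops of like span. The values of 1.87 and 1.91 are the most common ones of the FOXA1 liver mets and tumor lists. No Foxa2 promoter loop was in both HNF4G lists alone, a pattern shown by only 1.81% of all distinct loops. The highest value at Foxa2 in HNF4G tumor was 4.22, for the start of the noncoding gene Gm14117, 1740 kb downstream, a level that 0.573% of loops of like span reached. The promoter of Insm1, a zinc finger factor of endocrine cells, was joined to Foxa2 in HNF4G tumor alone at 1.99, which every loop of like span reached. It was picked out after its value was seen.

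Values of 2 or more were found for 6 Foxa2 promoter loops in the FOXA1 liver mets list, 1 in that of tumor, and 2 in each HNF4G list. Over all loops such values made up 9.33% and 7.84% of the FOXA1 lists of liver mets and tumor and 7.21% and 7.32% of those of HNF4G. The Foxa1 promoter had 1 such loop over the 4 lists, in HNF4G liver mets. At this minimum the FOXA1 liver mets over tumor ratio of Foxa2 became 6, from 6 loops and 1, where it was 1.38 over all its loops. The same ratio over all loops of the FOXA1 lists at this minimum was 1.44.

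The Foxa3 promoter anchor, shared with Sympk, lay in a gene-dense region with 23 other protein-coding genes within 250 kb, and its loops joined mainly other promoters. It had 23 distinct partners. One was in all 4 lists, the anchor chr7:19002046-19013707, which holds the start of Irf2bp1, a gene for a corepressor that binds IRF2, and reaches into the 3′ end of Foxa3 itself. That loop therefore cannot be told apart from a contact between the ends of Foxa3. Its FOXA1 values were 3.08 in liver mets and 1.25 in tumor, its HNF4G values were 2.33 and 1.89, and from 3.19% to 9.89% of loops of the same span had a value at least as high. It was high for its span in every list. The anchor is 11662 bp wide, so the part that touched the promoter cannot be placed more closely. Given below is 1 of its 60-base stretches with both forkhead motifs. The matches in it lie outside the central part of the anchor, for which shares over all anchors are given further on. No share was calculated over anchors of this width, so these matches do not set the partner apart.
Foxa3 partner at Irf2bp1, chr7:19010661-19010720: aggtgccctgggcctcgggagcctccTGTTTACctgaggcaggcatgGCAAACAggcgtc

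The promoter of Mypop, a Myb-related repressor, was joined to Foxa3 in every list but FOXA1 liver mets, at 0.123 for FOXA1 in tumor and 0.385 and 0.171 for HNF4G in liver mets and tumor. Fosb, which encodes an AP-1 subunit, was joined in the tumor lists only, and its promoter anchor lay upstream of Foxa3 at a span of 283 kb. It had 1.78 in FOXA1 tumor, reached by 57.8% of loops of like span. In HNF4G tumor it had 5.62, reached by 1.17% of them and the highest value at Foxa3. It was the only Foxa3 partner in both tumor lists alone, 4.35% of the distinct ones, beside 2.48% of all distinct loops. The promoter of Pglyrp1, an antibacterial peptidoglycan recognition gene 139 kb downstream, was joined in the HNF4G lists only, at 1.58 in liver mets and 1.51 in tumor. Those values were reached by 64.5% and 65.3% of loops of like span. An exon of Fbxo46, an F-box gene upstream at a span of 112 kb, was likewise in both HNF4G lists alone, at 2.37 and 1.25, reached by 16.5% and 89.5%. These 2 partners were 8.70% of the distinct ones at Foxa3, beside 1.81% of all distinct loops with this pattern. Whether it differs with the factor was not tested. In HNF4G liver mets the downstream loops of Foxa3 also covered Nova2, a neuronal splicing factor gene, with 3 exon or noncoding start anchors at 0.146 each and its promoter at 1.16. Every loop of like span in that list had a value of at least 0.146. Within 400 kb, 8 of 12 downstream anchors were joined in that list, against 2 in each FOXA1 list and 4 in HNF4G tumor. Upstream, 10 of 23 were joined in any list.

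**Figure D3:**
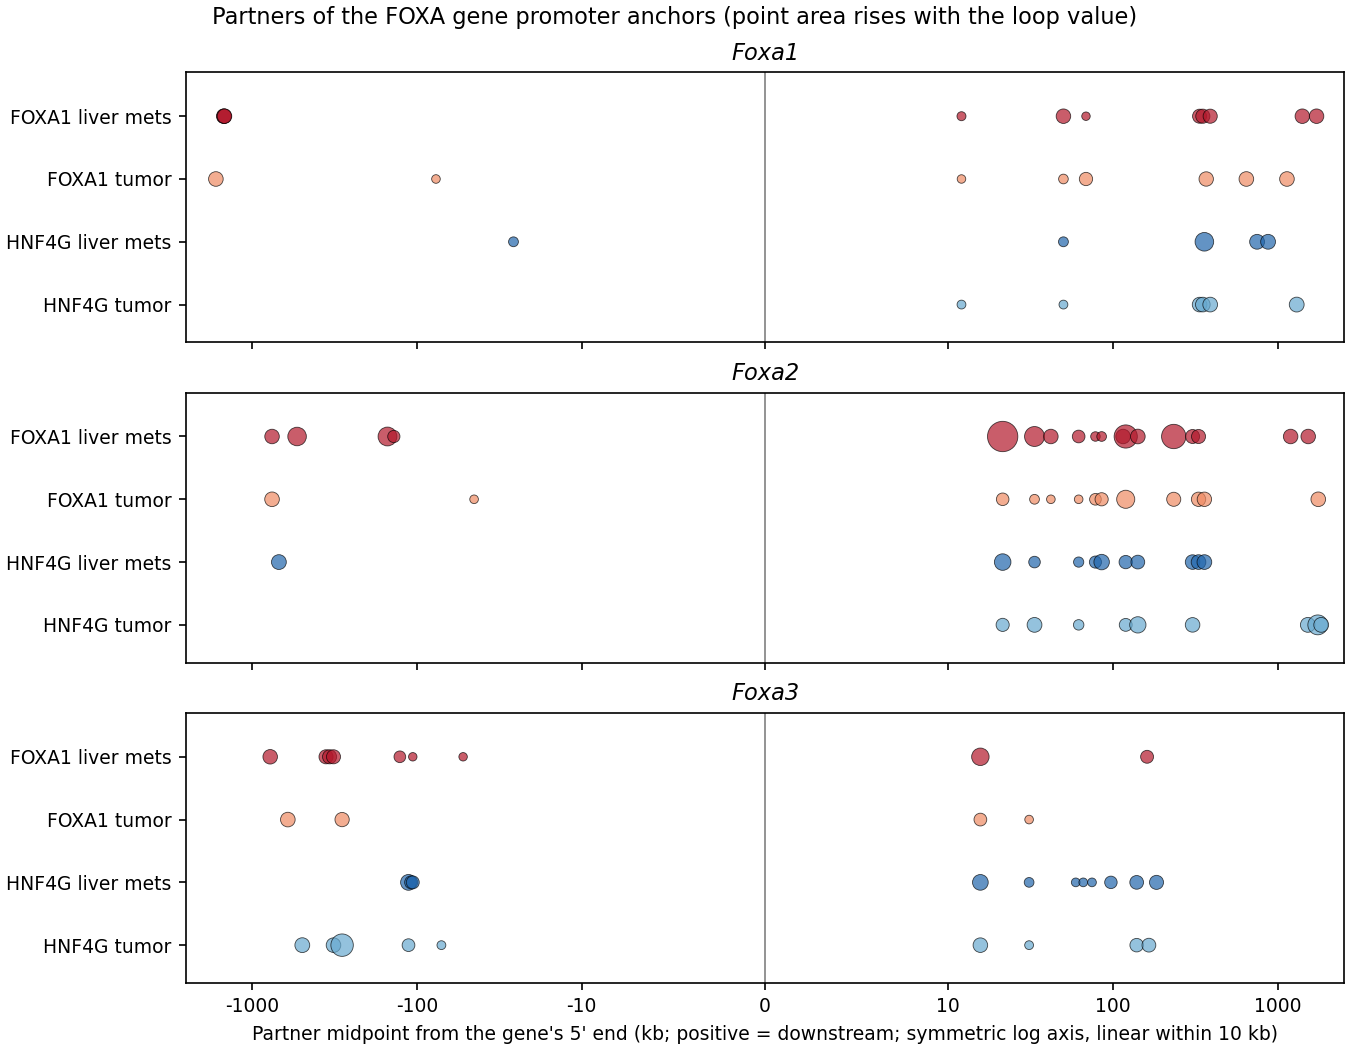
Partners of the promoter anchors of Foxa1 (top), Foxa2 (middle) and Foxa3 (bottom) by distance from the 5′ end of the gene in kb (horizontal, symmetric log axis that is linear within 10 kb, positive downstream) in each list (rows). Each point is 1 loop and its area rises with the loop value. The Foxa2 points at 21, 33, 62 and 119 kb downstream repeat in all rows, whereas 15 of 21 Foxa1 partners and 16 of 23 Foxa3 partners are in a single row.

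Most promoter loops of Foxa1 and Foxa3 were in a single list, 15 of 21 (71.4%) and 16 of 23 (69.6%), beside 65.6% of all loops of the series. At Foxa2 it was 12 of 25 (48%). Loops in all 4 lists made up 4.76% of the distinct loops at Foxa1 (interval 0.846 to 22.7), 16% at Foxa2 (6.40 to 34.7) and 4.35% at Foxa3 (0.772 to 21.0), beside 5.28% of all loops.

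Between the lines, 10 Foxa2 loops were in both FOXA1 lists, 55.6% of the liver mets and 76.9% of the tumor loops, beside 34.0% and 41.1% over all loops. For HNF4G at Foxa2, 6 loops were in both lines, 54.5% of liver mets and 66.7% of tumor loops, beside 32.9% and 33.6% over all loops. Foxa1 shared 3 loops between lines for FOXA1 (27.3% and 37.5%) and 1 for HNF4G (1 of 5 and 1 of 6). Foxa3 shared 1 for FOXA1 (1 of 9 and 1 of 4) and 4 for HNF4G (36.4% and 44.4%). Across factors in liver mets cells, 9 Foxa2 loops were in both lists, 9 of 18 for FOXA1 and 9 of 11 for HNF4G, beside 27.8% and 44.8% over all loops. Foxa1 had 1 and Foxa3 had 2 such loops. In tumor cells 4 Foxa2, 2 Foxa1 and 3 Foxa3 loops were in both factors' lists, beside 28.4% of all FOXA1 and 38.7% of all HNF4G loops. The difference from these shares was not tested, and they are not matched on span.

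Promoter loops spanned from 10.6 kb to 1822 kb. In list order, the median span was 386, 222, 356 and 340.3 kb at Foxa1, 139, 81.8, 116 and 138 kb at Foxa2, and 161, 157, 97.4 and 139 kb at Foxa3. For each gene the intervals of the 4 medians overlapped. With 4 loops (Foxa3, FOXA1 tumor) and 5 (Foxa1, HNF4G liver mets) that interval is the whole range and covers only 87.5% and 93.8%. Foxa1 had the longest median of the family in each list.

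The genes differed in how many anchors there were to join. Within 250 kb lay 6 anchors at Foxa1, 14 at Foxa2 and 26 at Foxa3, its own included. Promoter loops were therefore also set against the number expected from the share of anchor pairs listed genome-wide at the same spans. In list order, the observed number was 2.65, 2.27, 1.82 and 2.29 times the expected one at Foxa1. At Foxa2 it was 2.88, 2.42, 2.63 and 2.27 times, and at Foxa3 0.805, 0.430, 1.60 and 1.33 times. The medians over all genes were 0.880 to 0.962. From 88.0% to 98.3% of genes had a lower ratio than Foxa1, and from 92.7% to 98.8% had a lower ratio than Foxa2. Foxa3 stood at 44.0% and 14.9% in the FOXA1 lists and at 81.7% and 69.0% in the HNF4G lists.

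Anchor width moved with these ratios. Among genes whose promoter anchor was of like width, with the narrower at least 0.8 of the wider, Foxa1 exceeded 94.3%, 85.6%, 65.3% and 77.8% of 878 genes, and Foxa2 exceeded 83.6%, 65.1%, 63.0% and 43.9% of 189 genes, in list order. Foxa2 thus ranked lower among genes with wide anchors than among all genes in every list, and below the middle of them in HNF4G tumor. Foxa3 exceeded 53.4%, 18.7%, 87.8% and 77.0% of 4055 genes. In plain numbers of promoter loops, the medians of the like-width genes were 12, 10, 7 and 8 for Foxa1 and 23, 19, 15 and 16 for Foxa2. Those of Foxa1 and Foxa2 themselves were lower in every list. For Foxa3 the medians were 5, 4, 3 and 3, and its own numbers were equal or higher. These comparisons were chosen after the widths were seen.

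**Figure D4:**
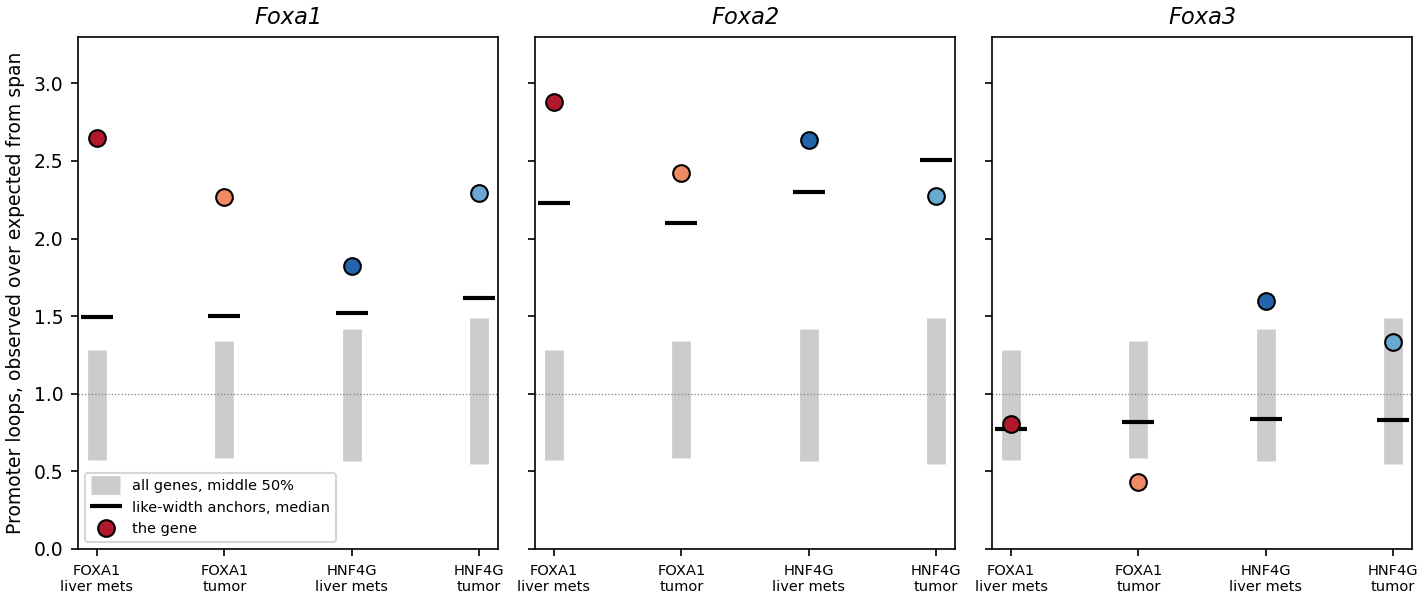
Promoter loops of Foxa1, Foxa2 and Foxa3 divided by the number expected from span (vertical axis) in each list (horizontal), with the middle 50% of all genes (gray bars) and the median of genes with promoter anchors of like width (black lines). Foxa1 and Foxa2 lie above the gray bars in all lists, and Foxa2 in HNF4G tumor, at 2.27, lies below the line for like width.

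The comparison of liver mets with tumor cells asks whether loops at the FOXA genes differed with the metastatic context. For FOXA1, the liver mets over tumor ratio of promoter loops was 1.38 at Foxa1 (11 and 8 loops, interval 0.504 to 3.94), 1.38 at Foxa2 (18 and 13, 0.641 to 3.07) and 2.25 at Foxa3 (9 and 4, 0.628 to 10.0). A ratio of at least 1.5 was reached by 1 of 3 FOXA genes, beside 25.3% of 6876 genes with 10 or more loops, and a ratio at least 1.5 times lower by none of 3, beside 8.62%. The median of those genes was 1.17. For HNF4G, the ratio was 0.833 at Foxa1 (5 and 6 loops, 0.201 to 3.28) and 1.22 at both Foxa2 and Foxa3 (11 and 9, 0.460 to 3.34). None of 3 was at least 1.5 times higher, beside 15.6% of 5439 genes, and none at least 1.5 times lower, beside 19.3%. All 6 intervals include 1, and as they stand for counting error alone they do not tell whether the lines differ.

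In the 250 kb neighborhoods, FOXA1 loops numbered 6 in liver mets and 8 in tumor at Foxa1, 34 and 28 at Foxa2, and 66 and 64 at Foxa3. The ratios were 0.75 (0.214 to 2.46), 1.21 (0.715 to 2.08) and 1.03 (0.720 to 1.48). None of the 3 genes was at least 1.5 times higher, beside 10.6% of 13800 genes, or lower, beside 3.42%. HNF4G loops numbered 5 and 2 at Foxa1, 28 and 11 at Foxa2, and 69 and 62 at Foxa3. The ratio was 2.55 at Foxa2 (1.23 to 5.67) and 1.11 at Foxa3 (0.778 to 1.59), and Foxa1 was under the minimum of 10 loops. Of the 2 genes that reached it, 1 was at least 1.5 times higher, beside 12.0% of 12754 genes, and none was lower, beside 5.28%.

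The ratio of 2.55 in the HNF4G neighborhood of Foxa2 was the highest among those from 10 or more loops. Its loops run between 14 shared anchors in 1 list per line, so the interval is no measure of variation between cultures and the difference between the lines was not tested. Divided by the length of each list it was 2.49 (1.20 to 5.54), and 1.01% of the 12754 genes had a ratio at least as high. The difference lay more in loops away from the promoter anchor, 21 in liver mets and 6 in tumor, than in those at it, 7 and 5. No HNF4G loop away from the anchor had a value of 2 or more. Several of those in liver mets had 0.146, the most common value of that list. In FOXA1 liver mets and tumor the loops away from the promoter numbered 22 and 19. Against the number expected from span, the Foxa2 neighborhood stood at 1.25 and 0.530 in the HNF4G lists of liver mets and tumor, and at 1.08 and 1.01 in those of FOXA1. A lower ratio than that of Foxa2 was found for 80.8% of 18124 genes in the first and 21.0% in the second of these lists. HNF4G tumor was thus the lowest of the 4 lists for this neighborhood, and its next lowest ratio was 1.01.

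Among single anchors of the Foxa2 neighborhood, the intronic one at 78.1 kb took part in 7 HNF4G loops of the neighborhood in liver mets and 1 in tumor. The exonic one at 85.1 kb took part in 5 and 1, the one at 61.8 kb in 6 and 2 and the one at 21.4 kb in 7 and 3. The anchor at 233 kb had 3 and 0. Other anchors differed less or not at all, with 5 and 4 at 33.4 kb, 4 and 3 at 141 kb and 1 and 1 at 151 kb upstream. In the FOXA1 lists the anchor at 78.1 kb had 4 loops in liver mets and 7 in tumor, and the one at 233 kb had 6 and 5. Of the neighborhood loops of Foxa2, 6 were in all 4 lists, the 4 promoter loops described above and a pair of short loops among downstream anchors. The Foxa3 neighborhood held 10 loops in all 4 lists, of 148, and that of Foxa1 held 1 of 11.

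**Figure D5:**
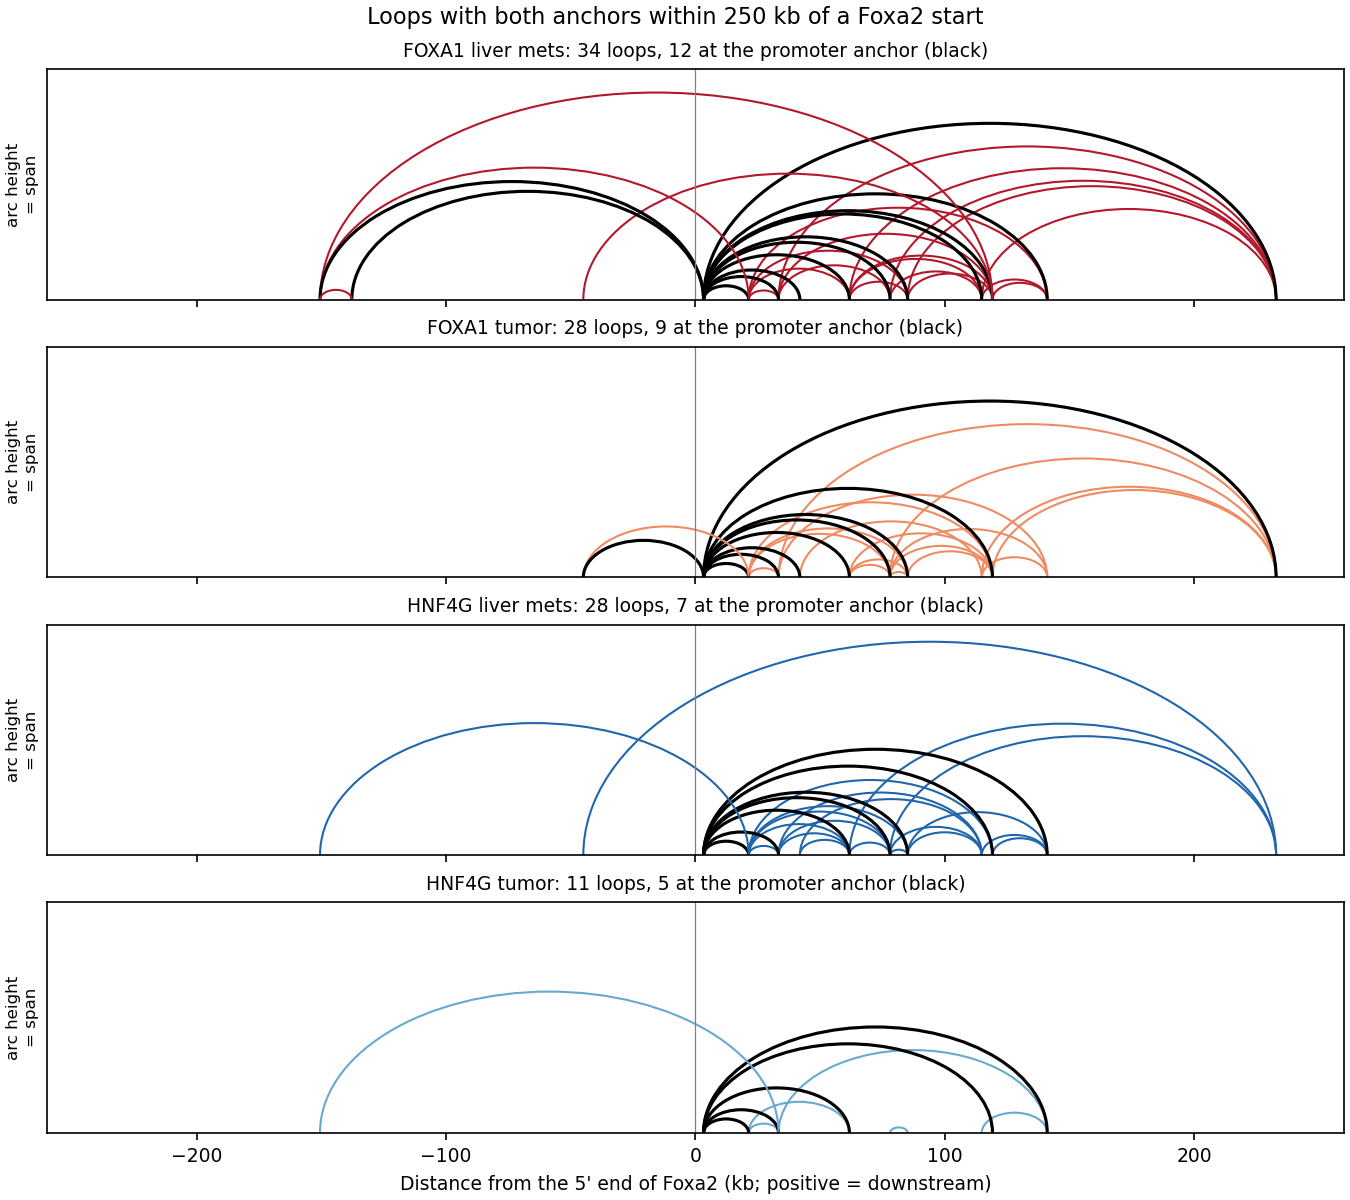
Loops with both anchors within 250 kb of a Foxa2 start in each list (panels), drawn as arcs between anchor midpoints against distance from the Foxa2 5′ end in kb (horizontal, positive downstream), with arc height proportional to span and promoter loops in black. The panels hold 34, 28, 28 and 11 loops, and the bottom panel, HNF4G tumor, lacks most of the colored arcs seen downstream in the others.

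Forkhead motifs were counted in the central 1000 bases of each partner of the FOXA promoters. TGTTTAC was present in 6 of 21 Foxa1 partners (28.6%), 6 of 25 Foxa2 partners (24%) and 3 of 23 Foxa3 partners (13%), beside 19.8% of all 30542 anchors. TGTTTGC was present in 6 (28.6%), 8 (32%) and 5 (21.7%), beside 21.8% of all anchors. CAAAGTCCA, found in 1.75% of anchors, was in the central part of no FOXA partner, and neither was the AGGTCA repeat, found in 0.0458% of anchors. These are matches of letters and say nothing of binding.

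In the other forkhead genes, a list of 41 named genes of this DNA-binding family, 21 had a promoter anchor and 18 had promoter loops in all 4 lists. The 21 made up 51.2% of the list, and 49.7% of all protein-coding genes had a promoter anchor. The median numbers of promoter loops of these 21 genes were 9, 12, 8 and 9, beside 11, 8, 11 and 9 for the FOXA genes, in list order. For FOXA1, 3 of 15 tested were at least 1.5 times higher in liver mets and 3 lower, beside 25.3% and 8.62% of all genes, and for HNF4G 2 and 3 of 15, beside 15.6% and 19.3%. The most promoter loops were at Foxp1, Foxp4 and Foxj1. Of 26 regulators of endoderm and pancreas, which include Foxm1 of the forkhead list, 20 had a promoter anchor (76.9%, beside the same 49.7%). Loops in all 4 lists were found for 18, and the medians were 17.5, 14.5, 11.5 and 13. For FOXA1, 5 of 16 were higher in liver mets and 0 lower, and for HNF4G 1 of 18 was higher and 3 lower, to be read against the same shares. Loops in all 4 lists were thus found for 18 of 21 and 18 of 20 genes with an anchor, beside the 84.5% given above. Ehf, Onecut3 and Tcf7l2 had the most loops. Hnf4g, the gene of the other pulled down factor, had 0, 2, 0 and 1 promoter loops in list order, fewer than any FOXA gene in each list.

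The genes most like each FOXA gene in promoter loop numbers over the 4 lists, by the Euclidean distance of log2 loops per 100000, were Atad1 for Foxa1, at a distance of 0.12, followed by 4 genes tied at 0.13, of which Mapk14 and Slc26a8 come first by name. For Foxa2 they were Sgms2, Rab1b and Ntn5 (0.11, 0.15 and 0.17), and for Foxa3 Tmem91, Hnrnpdl and Ceacam16 (0.32, 0.33 and 0.34). Each rests on 4 counts.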

How the data were processed

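FOXA1 and HNF4G Hi-ChIP libraries came from 8 samples, grouped by title into 4 groups of 2. According to the study and the submitters' processing notes, reads were processed with HiC-Pro (3.1.0) on mm10 after DpnII digestion and loops were called with hichipper. The authors deposited 1 loop list per group, and how the replicates were joined is not given in the sources used here. Each loop has an unnamed value, deposited by the authors and read as a −log10 adjusted p because its values are tied in runs and end at 20, and a display score, deposited by the authors, which was not used. Read depth and read pairs per loop are not analysed here, so the precision set by depth is unknown.

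Starts came from GENCODE M21 (GRCm38). Distances were taken between anchor midpoints, and loops were called shared when their anchor pairs were identical. Counts had exact Poisson intervals, ratios exact Clopper-Pearson intervals given the sum, shares Wilson intervals and medians order-statistic intervals. Expected numbers used the share of anchor pairs listed in 9 span ranges. Genes with at least 10 loops summed over both lines were compared at 1.5-fold. The counting steps were tested on simulated data. Named partners were coding starts joined in all 4 lists, in both lists of 1 factor or 1 line and no other, or by the highest value per gene and list, together with neighbors within 250 kb, the 3 most alike genes and up to 3 genes of each list. The gene family and the lists were chosen with earlier results of these data known. Python (3.11.15), pandas (2.3.3), numpy (2.4.6) and scipy (1.17.1) were used. Alternatives covered the minimum value, the distances, the starts used and the list size.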

Additional observations from a re-analysis of the deposited data

Results flagged for a closer look

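At Foxa1 the liver mets over tumor difference went opposite ways for the factors. In promoter loops the ratio was 1.38 for FOXA1 (11 and 8 loops) and 0.833 for HNF4G (5 and 6 loops). In neighborhood loops it was 0.75 for FOXA1 (6 and 8) and 2.5 for HNF4G (5 and 2). With 500 kb in place of 250 kb both neighborhood ratios were above 1, at 1.18 for FOXA1 (20 and 17) and 1.42 for HNF4G (17 and 12), so the opposite directions were lost there. With 1 list per group the difference between factors was not tested, and each of these 4 intervals includes 1.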

How the results depend on the processing

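No paired analysis was possible because the loop lists do not separate replicates, and for the same reason no replicate could be left out. Of 83 alternative values for 27 results, 75 stayed inside the interval of the reported value, and 10 further alternatives gave no value because too few loops were left. Many of the 75 only repeat the reported value. Each gene had 1 promoter anchor, so alternatives for the starts and for the distance to them picked the same promoter loops. They say nothing of how stable those results are. Division by list size rescales all ratios of a factor alike. Staying inside the interval did not keep the direction of the smaller neighborhood ratios. That of Foxa1 for FOXA1 became 1.18 at 500 kb, that of Foxa2 for FOXA1 became 0.786 at 100 kb, and those of Foxa3 became 0.889 and 0.920 for FOXA1 and 0.818 and 0.926 for HNF4G at 100 and 500 kb. For Foxa3 and FOXA1 it also became 0.984 without loops at the promoter anchor and 0.855 after division by list size. The other 8 all came from a minimum value of 2. There, the FOXA1 liver mets over tumor ratio at Foxa2 became 6 for promoter loops (6 and 1) and 6 for neighborhood loops (6 and 1), and the Foxa3 neighborhood ratio became 0.667 for FOXA1 (2 and 3) and 2.00 for HNF4G (2 and 1). The share of promoter loops in all 4 lists became 0 at Foxa1 (0 of 1), Foxa2 (0 of 9) and Foxa3 (0 of 3), and the median span of Foxa3 in FOXA1 liver mets became 16.2 kb (1 loop). The HNF4G neighborhood ratio of Foxa2 was 2.33 at 100 kb (14 and 6 loops) and 2.18 at 500 kb (37 and 17). At a minimum value of 2 it rested on 2 loops and 1, all at the promoter anchor. It was 3.50 without loops at the promoter anchor, an alternative added after seeing the data. Depth is unknown, and few loops per gene limit every ratio.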
